A study of Mus musculus with 6 samples.

Results

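The 9 genes described here are grouped as transcriptional targets of transforming growth factor beta (TGF-beta): Ski, Skil, Tgif1, Pmepa1, Klf10, Snai2, Cdkn1a, Cdkn2b and Tgfbi. They were chosen by symbol as direct response genes of the pathway or co-repressors of its SMAD proteins, and all 9 were found among 35275 listed genes, each with enough counts to be among the 15720 genes tested. RNA was sequenced from the epithelial region of back skin of C57BL/6 mice, with 3 libraries of the IL-33 KO genotype, which lacks the cytokine interleukin-33, and 3 of wild-type (WT) genotype. Both genotypes had 0.25% dinitrofluorobenzene (DNFB), a contact allergen, in acetone and olive oil applied to the back 3 times a week for 22 days, and untreated skin was not analysed here. The labels do not state the age of the mice, how the Il33 allele was made, or that each library is 1 animal, and the p-values below rest on the spread between the libraries, which may be technical.

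TGF-beta ligands bind paired receptor kinases that phosphorylate SMAD2 and SMAD3, which join SMAD4, enter the nucleus and switch target genes on or off. In epidermis the pathway is known for holding keratinocytes back from division, and in dermis for driving matrix production and wound contraction. Several of its targets act back on the pathway: SKI, SKIL (SnoN) and TGIF1 are co-repressors that bind SMAD proteins, and PMEPA1 keeps the receptor-activated SMADs away from the receptor.

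Proximal promoter sequence shows what the pathway's DNA-binding proteins would meet at the start of a target gene, and it is printed for the 2 members with the highest level per length, Cdkn1a and Tgfbi, and for the lowest, Cdkn2b. RefSeq sequences on GRCm38.p6, the assembly behind mm10, were matched to 5 of the 9 members, Tgfbi, Ski, Tgif1, Cdkn1a and Cdkn2b. Each printed sequence runs 5′ to 3′ on the gene's own strand and ends before the first annotated exon. Capitals mark CAGAC or its reverse complement GTCTG, the short core of a SMAD-binding element.
Cdkn1a, chr17:29090729-29090975, plus strand: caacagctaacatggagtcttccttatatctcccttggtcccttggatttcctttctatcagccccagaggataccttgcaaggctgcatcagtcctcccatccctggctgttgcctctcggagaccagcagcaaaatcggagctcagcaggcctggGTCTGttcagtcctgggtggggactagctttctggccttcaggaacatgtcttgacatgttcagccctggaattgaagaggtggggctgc
Tgfbi, chr13:56609336-56609522, plus strand: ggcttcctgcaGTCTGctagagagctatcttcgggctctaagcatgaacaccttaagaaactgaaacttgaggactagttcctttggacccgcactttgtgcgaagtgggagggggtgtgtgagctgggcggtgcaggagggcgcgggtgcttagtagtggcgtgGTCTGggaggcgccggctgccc
Cdkn2b, chr4:89311040-89311282, minus strand: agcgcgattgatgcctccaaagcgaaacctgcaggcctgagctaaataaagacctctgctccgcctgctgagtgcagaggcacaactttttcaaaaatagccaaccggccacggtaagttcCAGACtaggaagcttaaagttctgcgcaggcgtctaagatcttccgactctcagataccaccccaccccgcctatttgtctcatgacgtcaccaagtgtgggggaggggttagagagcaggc

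In the 250 bases before the RefSeq start, searched on both strands, CAGAC occurred in 4 of the 5 matched members, at 2 places in Tgfbi and 1 place each in Tgif1, Cdkn1a and Cdkn2b, and it was not found in Ski. It occurred in 42.2% of the 32851 such windows of all genes. The first annotated exon begins within the 250 bases in all 5 matched members. It begins after 187 bases in Tgfbi, 193 in Ski, 236 in Tgif1, 247 in Cdkn1a and 243 in Cdkn2b. The CAGAC matches of the members all lay before that exon, and the other motifs were counted over the whole 250 bases. In Tgif1 the stretch before the exon also holds exon sequence of another gene, Gm9320. The SMAD palindrome GTCTAGAC was in none of the 5 and in 0.167% of all windows. GGCGC, a GC-rich SMAD site, had 7 match starts in Ski and 3 in Tgfbi, and was in 32.02% of all windows. A stretch GGCGCC holds the motif on both strands and is counted as 2 starts, as in the printed Tgfbi sequence. GGGCGG, the GC box bound by SP1 and Krüppel-like factors, was found at 5 places in Ski and 1 in Tgfbi, and in 32.7% of all windows. No place was shared between GGCGC and GGGCGG. These matches describe letters in a window and say nothing of binding.

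Depth was 20459574 to 24359612 counts per library. Il33 had 11 to 22 counts in IL-33 KO libraries and 2817 to 3906 in WT libraries, as the genotype labels name. WT 3 stood apart from the other WT libraries: the chi-square of its counts was 100.1 per degree of freedom against WT 1 and 89.6 against WT 2, but 33.2 against IL-33 KO 2, while WT 1 and WT 2 differed by 42.2. Markers of other skin compartments differed between the libraries. The summed level of 15 hair follicle markers was 10551 to 21702 CPM (counts relative to the TMM-scaled library size, in edgeR's usual unit) in IL-33 KO and 2721 to 5789 CPM in WT, with 15 of 15 higher. The summed level of 10 skeletal muscle markers was 22.4 to 311 CPM in IL-33 KO libraries, against 15.9 to 23.0 CPM in WT, with 7 of 7 tested higher. That of 7 basal keratinocyte markers was 22232 to 31198 CPM in IL-33 KO libraries, against 26358 to 41591 CPM in WT (1 of 7 higher), and that of 10 fibroblast markers was 12169 to 14179 CPM in IL-33 KO libraries, against 12860 to 23095 CPM in WT (1 of 10 higher), with the highest value in WT 3. The summed level of 6 suprabasal keratinocyte markers was 9194 to 22663 CPM in IL-33 KO libraries, against 17237 to 33403 CPM in WT, with 0 of 6 higher. That of 11 macrophage and monocyte markers was 963 to 1144 CPM in IL-33 KO libraries, against 1174 to 1258 CPM in WT (3 of 11 higher). These sums did not overlap, but taken singly 0 of the 11 markers were without overlap, against 13.9% of tested genes. The summed level of 10 B and plasma cell markers was 1368 to 1672 CPM in IL-33 KO libraries, against 1073 to 1335 CPM in WT (8 of 9 tested higher). These sums did not overlap, and singly 5 of the 9 tested markers were higher without overlap. No marker of these 7 lists was at 0 in all libraries. Keratin genes of basal epidermis were abundant in each, as the epithelial label names, but so were the fibroblast markers, so the libraries did not hold epithelium alone. The summed level of 9 adipocyte markers was 768 to 1076 CPM in IL-33 KO libraries, against 178 to 819 CPM in WT (8 of 9 higher). The part of these markers in the levels below was not tested. In such bulk samples fewer cells of a type and less RNA per cell cannot be told apart.

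The design poses 1 question, which genes are expressed differently without IL-33 in chronically inflamed skin. None of the 9 genes was called as higher or lower in IL-33 KO. In edgeR's quasi-likelihood test 0 of 9 passed a Benjamini-Hochberg adjusted p of 0.05 over all tested genes, where 0.0191% of tested genes passed (3 genes). The count was also 0 of 9 at an unadjusted p under 0.05, where 9.02% of tested genes stood, and 0 of 9 in DESeq2, where 1.28% of genes with an adjusted p passed. The IL-33 KO and WT libraries overlapped for each of the 9 genes, and 13.9% of tested genes showed no overlap in either direction. For as few as 9 genes a count of 0 is near that share, and it is not read as a trait of the members. Fold changes of IL-33 KO over WT lay between 0.799 (Klf10) and 1.04 (Skil). In simulated data edgeR recovered 8% of genes changed 1.5-fold. The members' estimates were smaller than that, a size that was not simulated, and a count of 0 does not show that these genes were unchanged.

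The 95% interval of the fold change included no change for 9 of 9 members. Over the 9 genes its lower bounds reached down to 0.581-fold, for Klf10, and its upper bounds reached up to 1.32-fold, for Skil. Log2 fold changes had standard errors from 0.11 (Snai2) to 0.20 (Klf10). The median log2 fold change of the members was -0.11, against -0.01 over all tested genes. Their median absolute log2 fold change was 0.11, against 0.18 over all tested genes and 0.14 over the 8893 tested genes with a mean level at or above that of Cdkn2b, the lowest member.

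**Figure D1:**
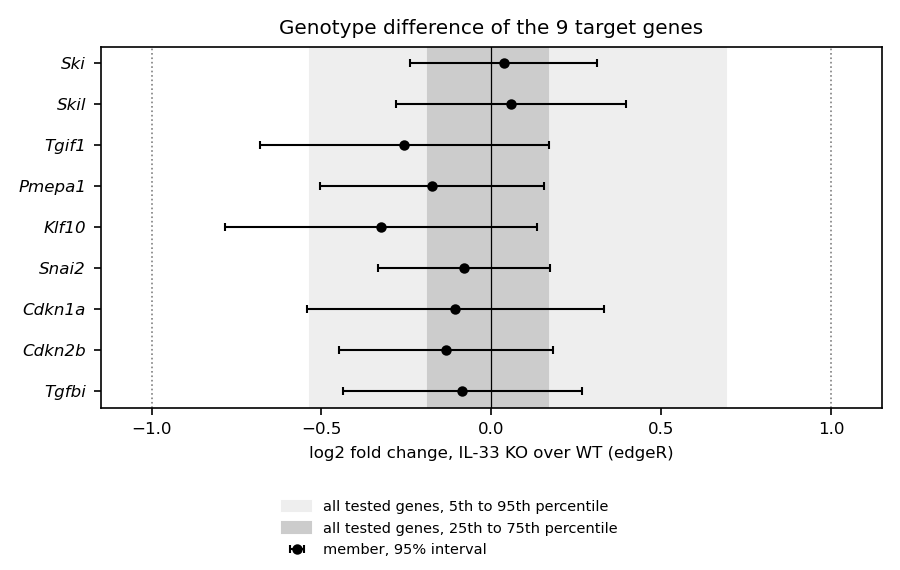
Log2 fold change of IL-33 KO over WT on the x axis for each of the 9 genes (points, edgeR estimates; bars, 95% intervals), over grey bands that span the 25th to 75th and the 5th to 95th percentile of all tested genes. Dotted lines mark log2 values of -1 and 1. Every bar crosses 0 and lies between the dotted lines, and Klf10 has the longest bar.

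The co-repressors Ski, Skil and Tgif1 come first. Ski, named for the avian sarcoma virus gene, lies on mm10 chromosome 4, 155154075 to 155222592, minus strand. Its level was 143, 158 and 147 CPM in libraries IL-33 KO 1, 2 and 3, against 140, 137 and 160 CPM in WT 1, 2 and 3. The highest value of all was in WT 3 and the lowest in WT 2, so that the WT libraries enclosed the IL-33 KO libraries. For Ski the log2 fold change was 0.04 ± 0.12 (SE; edgeR adjusted p 0.936).

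Skil, whose protein is degraded when the pathway is switched on and whose gene is then induced as negative feedback, lies on chromosome 3, 31095058 to 31122577, plus strand. It stood at 81.04, 99.6 and 79.8 CPM in IL-33 KO libraries, against 94.4, 71.8 and 83.9 CPM in WT. IL-33 KO 2 was highest and WT 2 lowest, with the other libraries of both genotypes between them. For Skil the log2 fold change was 0.06 ± 0.15 (SE), and edgeR's adjusted p was 0.912. Per length, Ski exceeded Skil in each library: the ratio of their FPKM values was 2.15, 1.93 and 2.23 in IL-33 KO and 1.80, 2.33 and 2.32 in WT. The ratio thus overlapped between the genotypes and was lowest in WT 1.

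Tgif1 encodes a homeodomain protein that competes with co-activators on SMAD complexes, on chromosome 17, 70844205 to 70853546, minus strand. It was measured at 37.0, 31.1 and 42.7 CPM in IL-33 KO libraries, against 54.9, 41.0 and 36.5 CPM in WT. WT 1 stood highest and IL-33 KO 2 lowest, while WT 3 lay below IL-33 KO 1 and 3. Its log2 fold change was -0.26 ± 0.18 (SE), and edgeR's adjusted p was 0.690.

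Pmepa1, the membrane-bound feedback inhibitor, lies on chromosome 2, 173224458 to 173276533, minus strand. Its level was 177, 141 and 173 CPM in IL-33 KO libraries, against 204, 185 and 165 CPM in WT. WT 1 and WT 2 were above all IL-33 KO libraries and WT 3 was below IL-33 KO 1 and 3. The log2 fold change of -0.18 ± 0.14 (SE) had an adjusted p of 0.718 in edgeR.

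Of the transcription factor targets, Klf10 had the largest difference among the 9 genes. Klf10 (TGF-beta-inducible early gene 1), a Krüppel-like zinc finger protein that is among the earliest genes induced by TGF-beta, lies on chromosome 15, 38294413 to 38300707, minus strand. It stood at 70.8, 73.3 and 86.9 CPM in libraries IL-33 KO 1, 2 and 3, against 120, 99.3 and 69.8 CPM in WT 1, 2 and 3. WT 1 and WT 2 lay above all IL-33 KO libraries, and WT 3 had the lowest value of the 6. The log2 fold change was -0.32 ± 0.20 (SE), and edgeR's adjusted p was 0.644. Without WT 3 it was -0.51, with an unadjusted p of 0.00963 and an adjusted p of 0.153 in edgeR, so that Klf10 did not pass there either, and 17.2% of all tested genes had an unadjusted p under 0.05 in that fit. Without WT 1 it was -0.13, with an unadjusted p of 0.499.

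Snai2 (Slug), a zinc finger repressor of basal keratinocytes, fibroblasts and melanocytes that is known for repressing E-cadherin, lies on chromosome 16, 14705852 to 14709395, plus strand. It was among the least variable members, at 44.5, 42.1 and 46.9 CPM in IL-33 KO libraries, against 47.5, 49.7 and 43.9 CPM in WT. The values interleaved, with IL-33 KO 2 lowest and WT 2 highest. Its log2 fold change of -0.08 ± 0.11 (SE) had an adjusted p of 0.833 in edgeR and turned to 0.004 when libraries were scaled to total counts. The melanocyte markers were higher in IL-33 KO in 7 of 7 cases, with a summed level of 159 to 315 CPM in IL-33 KO libraries, against 87.1 to 163 CPM in WT, and their part in the Snai2 level was not tested.

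The CDK inhibitors Cdkn1a (p21) and Cdkn2b (p15) are the targets through which TGF-beta is known to arrest epithelial cells. Cdkn1a lies on chromosome 17, 29090979 to 29100722, plus strand, and had 287, 358 and 384 CPM in IL-33 KO libraries, against 430, 389 and 288 CPM in WT. IL-33 KO 1 and WT 3 were the low libraries and WT 1 the high one. For Cdkn1a the log2 fold change was -0.11 ± 0.19 (SE; edgeR adjusted p 0.871). Cdkn1a overlaps 1 gene in GENCODE M21, AC167363.2 on the opposite strand, which is not among the listed genes. Where counting ignored strand, reads of AC167363.2 may have been added to Cdkn1a, and the sources used here do not state the strand setting.

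Cdkn2b, on chromosome 4, 89306289 to 89311032, minus strand, had the lowest level of the 9 genes. It was measured at 13.4, 13.3 and 14.0 CPM in IL-33 KO libraries, against 13.4, 16.3 and 14.9 CPM in WT, from 265 to 378 counts per library. The IL-33 KO libraries lay within 1 CPM of each other, and WT 1 fell among them. The log2 fold change was -0.13 ± 0.14 (SE), and edgeR's adjusted p was 0.771.

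Tgfbi encodes a secreted matrix protein that binds integrins and collagen and takes its name from its induction by TGF-beta. It lies on chromosome 13, 56609603 to 56639339, plus strand, and had the most counts of the members, 9664 to 12420 per library. Its level was 408, 495 and 467 CPM in IL-33 KO libraries, against 542, 422 and 490 CPM in WT. The lowest library was IL-33 KO 1, followed by WT 2, and the highest was WT 1. The log2 fold change of -0.09 ± 0.15 (SE) had an adjusted p of 0.871 in edgeR.

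**Figure D2:**
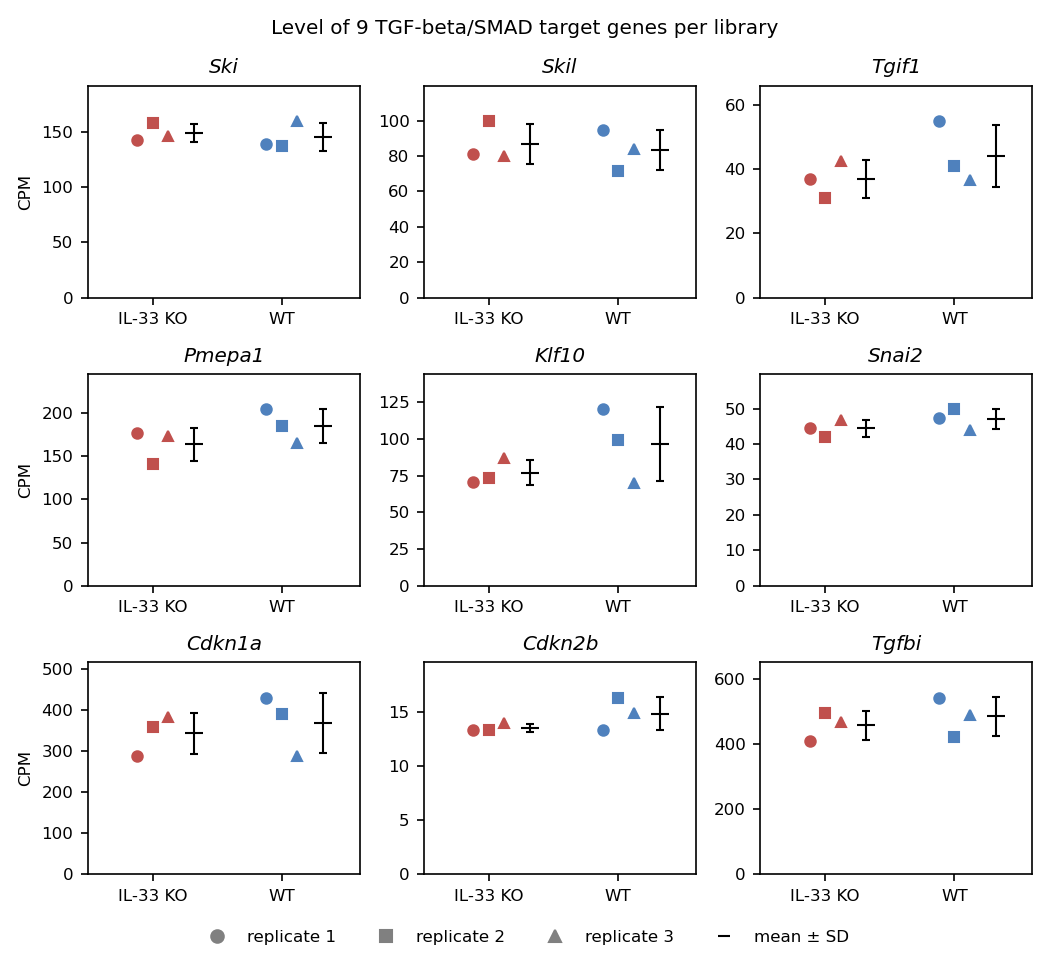
Level in CPM (y axis, from 0) of each of the 9 genes in the 3 IL-33 KO libraries (red) and the 3 WT libraries (blue), with the replicate number as the symbol and the mean ± SD in black. The genotypes overlap in each panel, and the WT triangle (WT 3) is the lowest point of the Klf10 panel, at 69.8 CPM.

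Of the 9 members 2 had a positive and 7 a negative log2 fold change, none past the test, against 48% of all tested genes higher. With total-count scaling 3 of 9 were higher. WT 1 had the highest value of 5 of the 9 genes, WT 2 of 2, and WT 3 and IL-33 KO 2 of 1 each. The median deviation of the members from their mean over the 6 libraries was 0.21 in WT 1 on the log2 scale. The median deviation was -0.08, -0.09 and 0.00056 in IL-33 KO 1, 2 and 3, and 0.10 in WT 2 and -0.06 in WT 3. IL-33 KO 2 had the lowest value of 4 genes, IL-33 KO 1 and WT 2 of 2 each, and WT 3 of 1. Without WT 3 the members' median log2 fold change was -0.13, and without WT 1 it was -0.07 with 4 of 9 higher. Left out in turn, IL-33 KO 2 and WT 2 each gave 0 of 9 higher. In these fits, too, 0 of 9 passed.

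Per length, the members fell into 3 tiers that did not overlap in any library. These levels are FPKM, the count divided by the gene's length and the library's total count. Cdkn1a (184 ± 21.2 FPKM in IL-33 KO libraries, against 186 ± 26.2 FPKM in WT; SD, n = 3 each) and Tgfbi (175 ± 10.8 FPKM in IL-33 KO libraries, against 176 ± 24.2 FPKM in WT) formed the top tier and overlapped each other. Pmepa1 averaged 37.2 ± 5.46 FPKM in IL-33 KO libraries, against 39.4 ± 2.13 FPKM in WT. It was followed by Klf10, Ski and Snai2 in the middle tier, where each neighbour in the order overlapped the next. Snai2 stood at 22.5 ± 1.54 FPKM in IL-33 KO libraries, against 22.5 ± 0.644 FPKM in WT. Tgif1, Skil and Cdkn2b formed the bottom tier between 8.93 and 16.2 FPKM, again with overlap between neighbours. Cdkn2b averaged 10.01 ± 0.376 FPKM in IL-33 KO libraries, against 10.4 ± 1.26 FPKM in WT. The order was the same in both genotypes, except that Ski stood above Klf10 and Skil above Tgif1 in the IL-33 KO means, and both pairs overlapped.

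**Figure D3:**
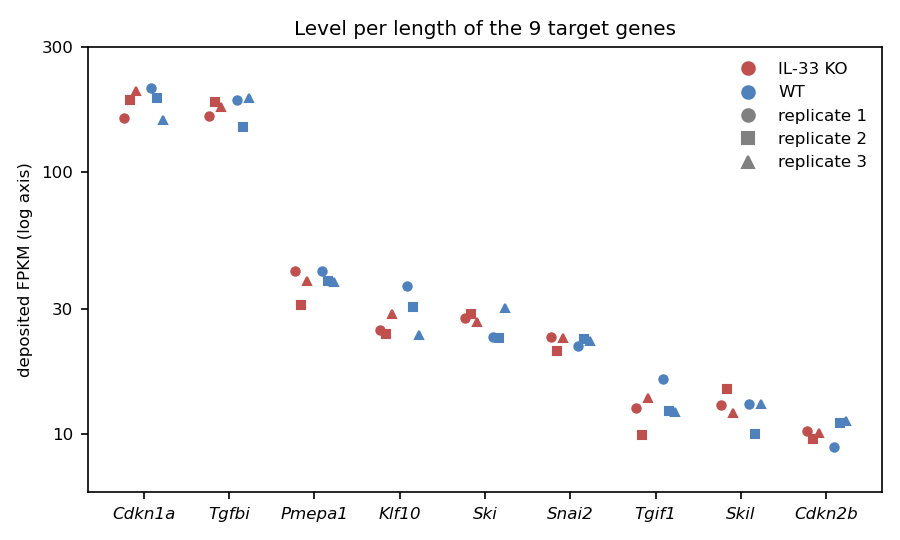
Deposited FPKM (y axis, log scale) of the 9 genes in each library, IL-33 KO in red left of WT in blue, ordered by the WT mean. Cdkn1a and Tgfbi lie between 148 and 210 FPKM, and the other 7 genes below 42 FPKM.

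Other genes of the pathway were read from lists of textbook members. Of 30 further TGF-beta/SMAD targets, all tested, 0 passed in edgeR, 9 had a positive and 21 a negative log2 fold change, and the median log2 fold change was -0.17. Cyr61 (Ccn1), a matricellular protein gene that is also induced through YAP and serum response factor, had the smallest p. Its counts were 811, 744 and 714 in IL-33 KO libraries, against 1030, 1192 and 1563 counts in WT, or 34.2, 31.4 and 34.5 CPM in IL-33 KO libraries, against 51.9, 52.1 and 61.6 CPM in WT. All 3 IL-33 KO libraries lay below all WT libraries. Its log2 fold change of -0.73 ± 0.12 (SE) had an adjusted p of 0.187 in edgeR and 0.00114 in DESeq2, so that it was called by DESeq2 alone of the 18 alternatives. In simulated data with 200 changed genes among 15720, 23.6% of all DESeq2 calls were false. This share over all calls does not give the odds for Cyr61. The DESeq2 fit of the deposited counts also took more genes, 23874 without a filter. Tnfaip6, encoding a hyaluronan-binding protein induced by inflammatory cytokines, had the second smallest p, at 7.97, 7.17 and 12.4 CPM in IL-33 KO libraries, against 15.2, 13.9 and 11.4 CPM in WT (adjusted p 0.547 in edgeR).

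Well-known targets of the pathway, named after their values were seen, differed in both directions and did not pass. Smad7, the inhibitory SMAD, averaged 34.9 ± 2.04 CPM in IL-33 KO libraries, against 26.7 ± 10.1 CPM in WT (SD, n = 3 each; adjusted p 0.655 in edgeR). Ctgf (Ccn2), a connective tissue matricellular gene, averaged 17.0 ± 4.09 CPM in IL-33 KO libraries, against 21.7 ± 2.54 CPM in WT (adjusted p 0.617 in edgeR). The collagen targets Col1a1, Col1a2 and Col3a1 had log2 fold changes of -0.26, -0.35 and -0.40, none past the test, and the summed fibroblast markers, which share these 3 genes, were highest in WT 3.

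Of 5 genes that TGF-beta is known to repress in epithelial cells, 3 were higher and 2 lower, and 0 passed in edgeR. The smallest p values were those of Cdc25a, a phosphatase that promotes cell division (24.3 ± 3.56 CPM in IL-33 KO libraries, against 19.9 ± 2.03 CPM in WT, adjusted p 0.607 in edgeR), and Id3, an inhibitor of helix-loop-helix factors. Id3 stood at 49.0, 21.4 and 43.7 CPM in IL-33 KO libraries, against 28.9, 28.5 and 26.2 CPM in WT, so that IL-33 KO 2 lay below all WT libraries and the other IL-33 KO libraries above (adjusted p 0.643 in edgeR).

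Among 23 components of the pathway, from ligands and receptors to SMADs and their ubiquitin ligases, 11 were higher and 12 lower, 0 passed in edgeR, and the median log2 fold change was -0.03. Smad3, the receptor-activated SMAD that binds the CAGAC core, had 32.8, 31.6 and 28.6 CPM in IL-33 KO libraries, against 25.6, 17.9 and 27.3 CPM in WT. All IL-33 KO libraries were above all WT libraries, at a log2 fold change of 0.39 ± 0.17 (SE) and an adjusted p of 0.556 in edgeR. Endoglin (Eng), a co-receptor of endothelial cells, had the second smallest p, at 45.3 ± 3.86 CPM in IL-33 KO libraries, against 52.4 ± 6.50 CPM in WT (adjusted p 0.647 in edgeR).

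Relatives and partners of the co-repressors did not pass either. Of 12 such genes 9 were tested, 7 higher and 2 lower, with 0 passing in edgeR. Hdac3, a histone deacetylase of co-repressor complexes, averaged 74.6 ± 3.28 CPM in IL-33 KO libraries, against 85.6 ± 7.80 CPM in WT (adjusted p 0.624 in edgeR). Tgif2, the paralog of Tgif1, averaged 1.38 ± 0.303 CPM in IL-33 KO libraries, against 0.884 ± 0.336 CPM in WT (adjusted p 0.641 in edgeR), from 10 to 41 counts per library. For Hdac3 and Tgif2 the genotypes did not overlap in CPM, as for 13.9% of tested genes. They overlapped in FPKM, where Hdac3 was 21.4 in WT 1 and 21.6 in IL-33 KO 2. Tgif2 was 0.413 FPKM in WT 3 and 0.404 FPKM in IL-33 KO 3.

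Cdkn1a is also a textbook target of p53. In a list of 16 other CDK inhibitors and p53-related genes, 5 were higher and 11 lower, and 0 passed in edgeR. Cdkn2a, the gene next to Cdkn2b that encodes p16 and p19ARF, had the smallest p, with 2.32, 1.22 and 1.69 CPM in IL-33 KO libraries, against 2.17, 5.11 and 3.94 CPM in WT. WT 1 lay below IL-33 KO 1, so the genotypes overlapped, and the log2 fold change of -1.10 ± 0.38 (SE) had an adjusted p of 0.504 in edgeR. Trp53inp1, a p53-induced stress gene, stood at 75.6, 74.9 and 49.5 CPM in IL-33 KO libraries, against 34.9, 40.7 and 55.5 CPM in WT (adjusted p 0.508 in edgeR).

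Of the paralogs of Snai2, Klf10 and Tgfbi, 8 were tested and 0 passed in edgeR. Klf4, a Krüppel-like factor needed for the epidermal barrier, had 439, 600 and 592 CPM in IL-33 KO libraries, against 836, 786 and 536 CPM in WT. WT 1 and WT 2 were above all IL-33 KO libraries and WT 3 was within them, as for Klf10 in that WT 3 was the lowest WT library (log2 fold change -0.40 ± 0.21 SE, adjusted p 0.605 in edgeR). Postn (periostin), the paralog of Tgfbi and itself a TGF-beta target, had 934, 943 and 857 CPM in IL-33 KO libraries, against 1005, 976 and 1707 CPM in WT. The groups did not overlap in CPM, but overlapped in FPKM, where WT 2 (211 FPKM) lay below IL-33 KO 1 (230 FPKM), and WT 3 set the WT mean (adjusted p 0.610 in edgeR).

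**Figure D4:**
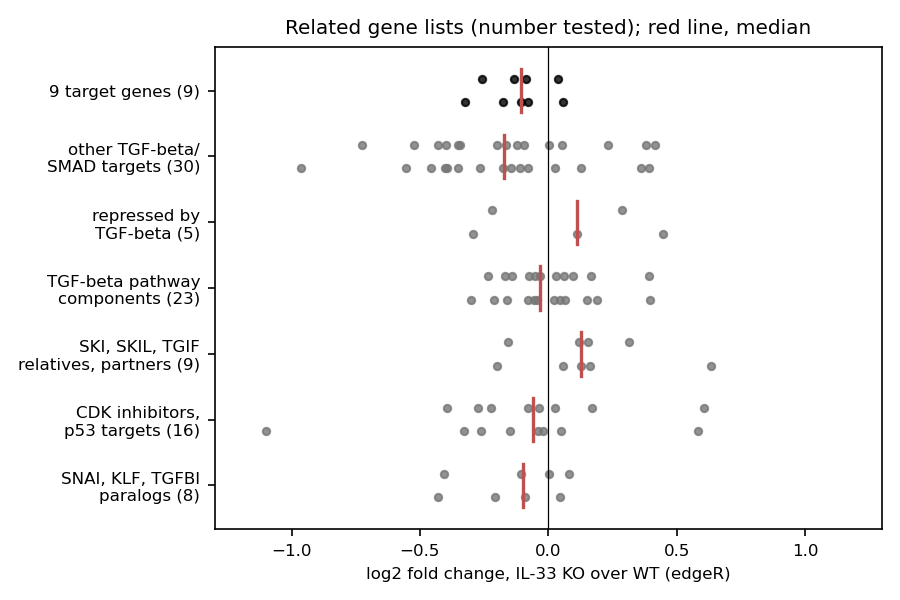
Log2 fold change of IL-33 KO over WT (x axis) of each tested gene (points) in the 9 target genes and in 6 related lists, with the median of each list as a red line. The 9 target genes lie between -0.32 and 0.06, within the range of the 30 other targets, which runs from -0.96 to 0.41.

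The gene most like each member in its levels over the 6 libraries was looked up by Pearson's r of log2 CPM among all tested genes outside the 9. The points are the same 6 libraries for each gene, and between 26 (Tgfbi) and 227 (Snai2) genes had r above 0.95. Each gene named is the maximum of a search through all tested genes, which favours a high r, and shared regulation was not tested. Skil was most alike to Mynn (r = 0.995, rho = 1, 6 libraries), a zinc finger gene that lies 476565 bases away on chromosome 3. Klf10 was most alike to Sprr2j-ps (r = 0.999, rho = 0.943, 6 libraries), listed as protein-coding in the deposited table and named for the small proline-rich family of epidermal envelope genes, whose reads may be shared with its close copies. Tgif1 was most alike to Tyrobp (r = 0.998, rho = 0.943, 6 libraries), which encodes an adaptor protein of myeloid and NK cell receptors. Snai2 was most alike to Bcas2 (r = 0.999), Ski to Zfp651 (r = 0.991), Pmepa1 to Cwf19l1 (r = 0.990), Tgfbi to B230217C12Rik (r = 0.989), Cdkn1a to Gm15500 (r = 0.987) and Cdkn2b to Rab3a (r = 0.983), over 6 libraries each. B230217C12Rik was low, with means of 0.617 CPM in IL-33 KO libraries and 0.882 CPM in WT, so few reads set its pattern. Rab3a averaged 4.21 CPM in IL-33 KO libraries and 5.25 CPM in WT.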

How the data were processed

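The authors deposited whole read counts and, in a separate table, FPKM values for each gene of 6 libraries. STAR, RSEM and mm10 are named in the submitters' processing notes, and their strand setting is not stated there. The deposited FPKM equals count over gene length and column total to a relative difference of 2.78e-07. The deposited counts went into edgeR 4.0.16 under R 4.3.3 (filterByExpr, TMM, glmQLFit, glmQLFTest, two-sided, Benjamini-Hochberg over 15720 genes, threshold 0.05), which was tested on simulated data. There edgeR recovered 8% of 50 genes changed 1.5-fold and 54% of 50 changed 2-fold, with 9.42% of its calls false. DESeq2 recovered 38% and 86% of them, with 23.6% of its calls false. Changes smaller than 1.5-fold, the size of the members' estimates, were not simulated. CPM uses TMM-scaled library sizes. Standard errors come from the F statistic, and 95% intervals from its denominator degrees of freedom. A two-sided exact permutation test per member gave p values of 0.3 to 0.7, where 3 against 3 allows 0.1 at least. Members and lists were chosen with earlier results of these data known. Named were all members, from each other list up to 4 passing genes or, with none passing, the 2 of smallest p, the gene most alike to each member, and Il33; other genes were chosen after their values were seen. Alternatives used DESeq2 1.42.0, limma 3.58.1, other size factors and filters, the replicate block and each library left out. Figures were drawn with matplotlib 3.10.9.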

Additional observations from a re-analysis of the deposited data

How the results depend on the processing

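Under all 18 alternatives 0 of 9 members passed, with a smallest adjusted p of 0.153 (Klf10 without WT 3). Of 162 member values 11 changed sign, all between -0.053 and 0.020 in log2 fold change where they did so. Snai2 turned to 0.00437 with total counts, 0.0022 with log2(FPKM + 1) filtered or unfiltered (0.00221) and 0.00223 with log2(FPKM + 0.1). With 1 library left out, log2 fold changes ranged from -0.26 to 0.02 for Cdkn1a, -0.05 to 0.16 for Skil, -0.0080 to 0.11 for Ski, -0.17 to 0.00496 for Tgfbi, -0.51 to -0.13 for Klf10, -0.38 to -0.07 for Tgif1, -0.25 to -0.08 for Pmepa1, -0.20 to -0.06 for Cdkn2b and -0.13 to -0.04 for Snai2. The members' median ranged from -0.16 to -0.06 and was -0.02 with total counts, where the median of all genes moved to 0.07. The count over all tested genes, 3 as reported, was 5 with upper quartile scaling, 5 with total counts, 5 with a CPM filter of 1, 33 without a filter, 234 in DESeq2, 11 in limma-voom, 15 with log2(FPKM + 1), 11 with log2(FPKM + 0.1), 6 with log2(FPKM + 1) unfiltered, and 2 to 24 with 1 library left out (24 without WT 3). The cause was not tested. Libraries with the same replicate number did not deviate together (r = -0.26, -0.12 and -0.38). The labels state no pairing, and deviations from means of 3 libraries cannot exclude one. With the replicate block 2 genes and 0 members passed, and no library correlated best with its own number. With 3 libraries per genotype, the members' intervals do not settle the direction of change for any of the 9 genes.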
